A study of Caenorhabditis elegans with 12 samples.

Results

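The double mutant of mes-2 and mes-4 in Caenorhabditis elegans was described from 4 of the 12 two-colour arrays of the series, those whose titles name both mutations. Each of these arrays carried RNA from dissected germ lines of the mes-2; mes-4 strain SS0965 beside RNA from dissected germ lines of the wild-type strain unc-4(e120). The other 8 arrays compared the mes-2 strain SS0186 with unc-4(e120) on 4 arrays, and the mes-4 strain SS0803 with the wild-type strain N2 on 4 arrays. All worms were adults grown at 20 °C. The mes alleles are not given in the sources used here. Double mutant germ lines were picked if they had proliferated well and held oocytes, while germ lines of wild type and of both single mutants came from adults that held at most a few fertilized embryos, so genotype and choice of germ line cannot be told apart. The mutant RNA carried Cy3 on double mutant replicates 1 and 3 and Cy5 on replicates 2 and 4, and the replicates were harvested independently. Total RNA was extracted and its poly-A fraction amplified before labelling.

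MES-2 is the methyltransferase of the worm's Polycomb complex, in which it works with MES-3 and MES-6 to place a repressive mark on histone H3. MES-4 places another mark on histone H3, over the bodies of genes that are transcribed in germ cells, and the products of all 4 genes that mothers load into the egg are needed for the germ line of the offspring to survive. In the worm germ line the X chromosome is largely silent compared with the autosomes until late oogenesis, and both MES-2 and MES-4 are known for their part in this repression.

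Values are log ratios of the double mutant over wild type, read as log2, and per-array values are given throughout in the order of replicates 1 to 4. A gene is said to have risen or fallen where its adjusted p was under 0.05 in a limma fit over all 12 arrays, which pools the spread of the 3 groups. Of 22490 probes, 17461 named a gene, giving 16378 genes, of which 12380 had a value on all 4 double mutant arrays and 1230 on none. The fit tested 12887 genes, those with a value on at least 3 arrays of every group. The double mutant arrays scattered more than the others, with a median residual of 0.24 per gene on the log2 scale, against 0.16 in mes-2 and 0.18 in mes-4. Across genes, pairs of double mutant arrays correlated at r = 0.15 (replicates 1 and 2) to 0.644 (replicates 1 and 4), over genes, on arrays that share platform and wild-type strain. After the fit, replicates 1 and 4 lay at 0.497 and 0.345 on the main axis of the residuals and replicates 2 and 3 at -0.342 and -0.5, and mes-4 replicate 3 lay with the first pair at 0.39. For gene groups whose medians or calls followed this split, the text also gives counts without the 3 arrays at the high end (double mutant replicates 1 and 4 and mes-4 replicate 3) and without the 2 at the low end (replicates 2 and 3). A lower ratio in a whole dissected tissue can mean fewer cells that carry a transcript or less transcript per cell, and these cannot be told apart.

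The mes-2 transcript was low in the double mutant on each array. Its log2 ratios were -2.70, -2.07, -2.69 and -2.49, and the fitted value was -2.49 (SE 0.20, n = 4, limma adjusted p = 1.51e-05). The direction of all ratios was read in part from the mes-2 probe, so its sign is no separate check. The mes-4 probe gave -0.68, 0.70, 0.40 and -0.55, which lie on both sides of 0, and its fitted value was -0.03 (SE 0.24, adjusted p = 0.956). It was 0.55 when replicates 1 and 4 and mes-4 replicate 3 were left out. The mes-4 probe thus gave no check of the label, and whether it lies in a mutated part of the gene is not given in the sources used here. mes-3, which encodes another subunit of the MES-2 complex, rose on all 4 arrays with 0.65, 1.04, 0.80 and 1.13 (fitted 0.91, SE 0.09, adjusted p = 6.63e-05). The mes-3 value differed from that of mes-4 mutants, which was -0.08 (adjusted p of the difference 0.0038). It did not differ by test from that of mes-2 mutants, in which mes-3 also rose. The mes-2 value was 0.465 (adjusted p = 0.0117, and 0.0694 for the difference). On the 4 double mutant arrays alone the adjusted p of mes-3 was 0.0570.

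In all, 2046 genes differed from wild type in the double mutant, which is 15.9% of the genes tested. Of these, 1240 rose (9.62%) and 806 fell (6.25%). Rises were larger than falls: 434 genes rose and 151 fell by more than 2-fold, and 154 rose and 10 fell by more than 4-fold. The count depends on the joint fit, since a fit on the 4 double mutant arrays alone called 173 genes (1.34%), 152 higher and 21 lower. That fit also has fewer arrays to estimate the spread from, so the lower count does not measure pooling alone. The mean squared residual was 0.139 in the double mutant, 0.083 in mes-2 and 0.067 in mes-4. Pooling thus understates the spread of the double mutant on average, which makes its adjusted p values smaller. Without double mutant replicate 4 the count in the joint fit was 1289. Of the genes called that had a value on all 4 arrays, 960 of 1163 higher genes and 670 of 776 lower genes lay on the same side of 0 on each array. The calls rest on these same arrays, so this describes the genes called and is no separate support.

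The X chromosome gave the largest share of the rises. Of 1702 X-linked genes tested, 358 rose (21.03%) and 32 fell (1.88%), whereas of 11136 autosomal genes 879 rose (7.89%) and 770 fell (6.91%). Among the autosomes the share that rose lay between 6.98% on chromosome V and 9.07% on chromosome IV. The share that fell lay between 4.47% on chromosome V and 9.61% on chromosome I. Of the 154 genes more than 4-fold higher, 51 were autosomal, and of the 10 genes more than 4-fold lower none lay on X. X held 15.1% of the genes that rose by a log2 ratio under 0.5, 48.0% of those between 1.5 and 2 and 68.7% (90 of 131) of those between 2 and 3, where 13.3% of the genes tested with a known chromosome lie on X. Above 3 it held 13 of 23. Along X the rises were spread over its whole length: with the tested genes split by position into 10 parts of equal size, between 13.5% and 31.8% of genes rose, with the lowest share in the first part and the highest in the ninth.

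**Figure D1:**
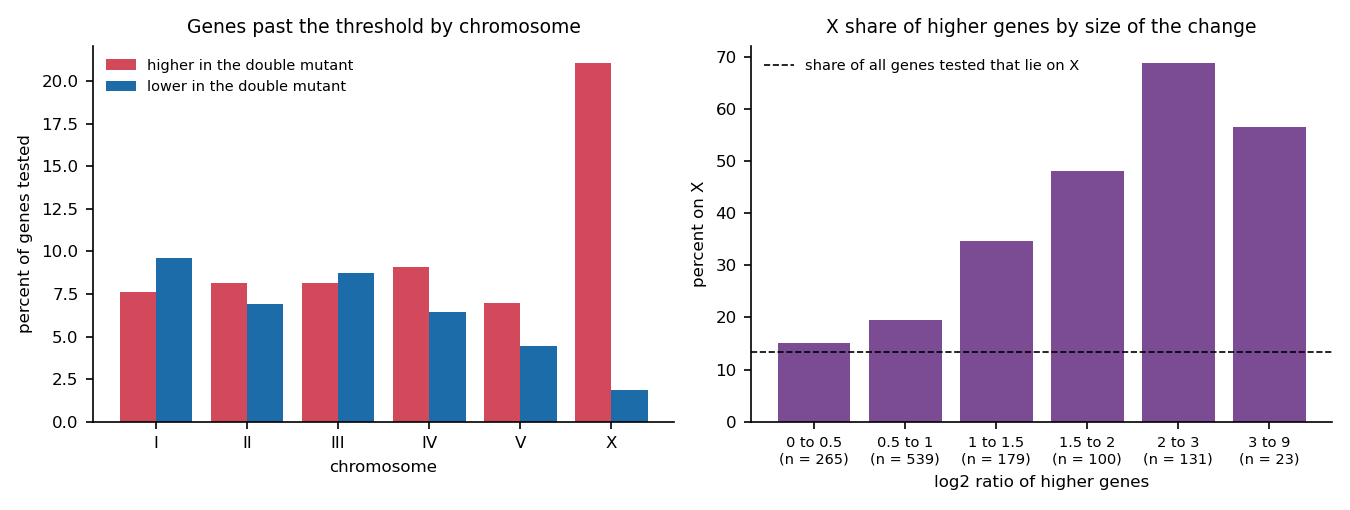
Left, percent of the genes tested on each chromosome that rose (red) or fell (blue) in the mes-2; mes-4 double mutant; right, percent of the genes that rose which lie on X, by the size of their log2 ratio, with the number of genes under each bar and a dashed line at the 13.3% of genes tested that lie on X. On X 21.03% of genes rose and 1.88% fell, and the X share was highest, 68.7%, among genes with log2 ratios of 2 to 3.

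The X-linked shift was an upper tail more than a shift of all X-linked genes. The X-linked genes had a median log2 ratio of 0.10 and a 95th percentile of 2.17, against -0.01 and 0.67 for autosomal genes. On the 4 arrays the 95th percentile was 1.45, 2.79, 2.87 and 2.02 for X-linked genes and 0.94, 0.93, 0.91 and 1.08 for autosomal genes, so the X tail was longer on each array and shortest on replicate 1. The median of X minus the median of the autosomes was 0.17, 0.03, 0.31 and 0.085 on the 4 arrays (mean 0.149 ± 0.122 SD, n = 4). It was above 0 on 4 of 4 arrays, and the exact two-sided sign-flip test gave p = 0.125, the smallest that 4 arrays allow. Both arrays with the mutant in Cy3 lay above both arrays with the mutant in Cy5, and the same order held in both single mutants. In mes-2 mutants the values were 0.12 and 0.15 in Cy3 and -0.02 and -0.085 in Cy5, and in mes-4 mutants 0.23 and 0.198 in Cy3 and 0.1 and 0.03 in Cy5. Of X-linked genes with 4 values, 402 of 1542 (26.1%) lay above 0 on each double mutant array and 75 (4.9%) below. For autosomal genes these shares were 9.3% and 9.9%, and for all genes tested 11.4% and 9.22%. X held 28.9% of the genes that rose, and 18.9% without both replicates 2 and 3.

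**Figure D2:**
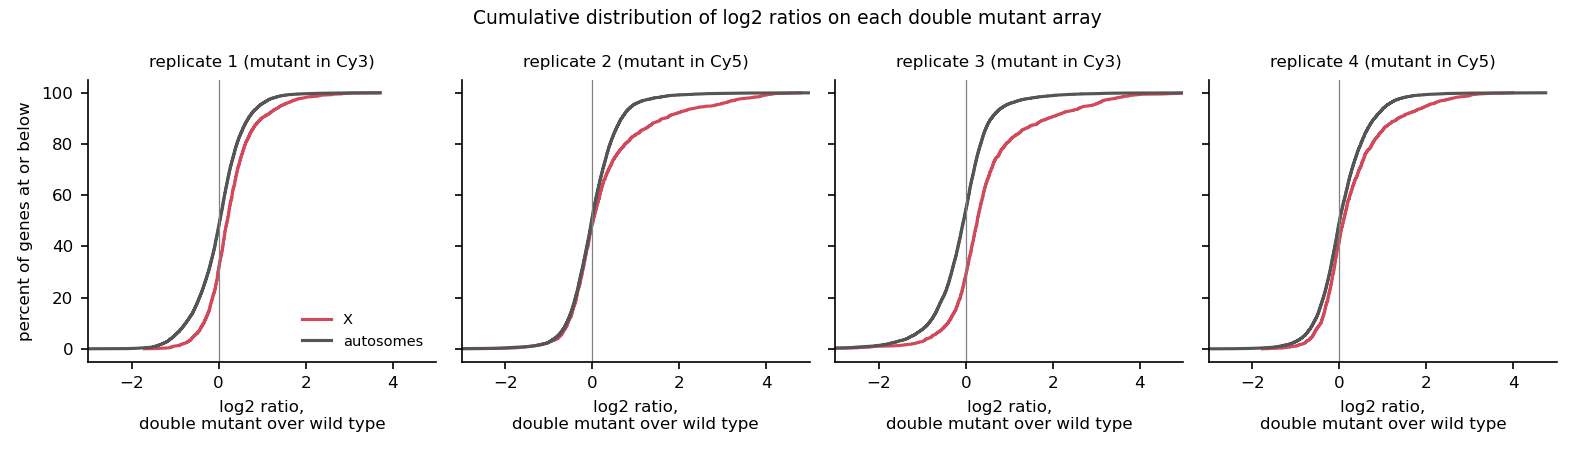
Cumulative share of genes (vertical axis, percent) at or below each log2 ratio of the double mutant over wild type (horizontal axis), for X-linked genes (red) and autosomal genes (grey) on each of the 4 double mutant arrays. The curves part mainly in the upper tail, where the 95th percentile of X-linked genes was 1.45, 2.79, 2.87 and 2.02.

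The 12 X-linked genes described here are the highest of those with a symbol, a call and all 4 values above 0. Among genes known by a sequence name, F08G12.1, with 2.06, 4.39, 4.60 and 3.00 (fitted 3.51), and Y26E6A.2, measured on 3 arrays (fitted 3.52), lay between coh-1 and nac-1 of these 12. bra-1, which encodes a protein that binds receptors of the TGF-beta family, had log2 ratios of 3.71, 4.17, 4.83 and 3.99 (fitted 4.17, SE 0.21, adjusted p = 6.59e-07). egl-6, a neuropeptide receptor gene that inhibits egg laying, had 2.74, 4.46, 5.02 and 3.80 (fitted 4.00, SE 0.29, adjusted p = 8.77e-06). For both genes replicate 1 was lowest and replicate 3 highest. coh-1, a cohesin subunit of somatic cells, had 2.41, 4.16, 5.23 and 3.29 (fitted 3.77, SE 0.36, adjusted p = 5.27e-05), and its adjusted p on the 4 double mutant arrays alone was 0.0570. nac-1, a dicarboxylate transporter gene, had 1.59, 3.97, 4.21 and 3.26. flwr-1, the worm relative of the Flower vesicle protein, was tighter at 2.61, 3.31, 3.61 and 3.39 (fitted 3.23, SE 0.17). The other genes were lnp-1, a lunapark gene of the endoplasmic reticulum, at a fitted log2 ratio of 3.17, asb-2, a subunit of the mitochondrial ATP synthase, at 3.05, the autophagy gene atg-16.1 at 3.01, the F-box gene fbxa-170 at 2.99, trpp-9 of the TRAPP trafficking complex at 2.96, the splicing factor gene snrp-40.1 at 2.93 and the aminotransferase gene nkat-3 at 2.91. On replicate 1 each of the 12 genes was lower than on replicates 2, 3 and 4. Of the 12, 7 also passed on the 4 double mutant arrays alone. fbxa-170 was no longer called without both replicates 2 and 3.

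**Figure D3:**
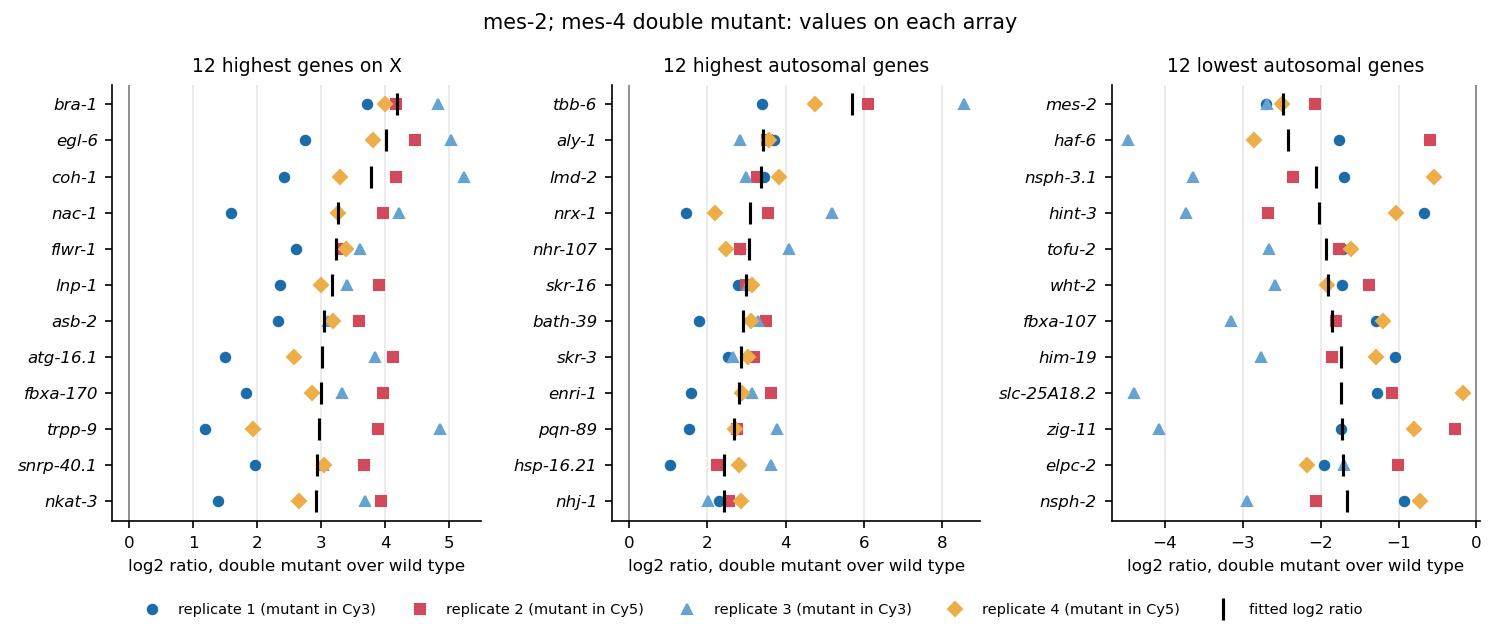
Log2 ratios of the double mutant over wild type on each array (points, by replicate and dye of the mutant RNA) with the fitted value (bar) for the 12 highest X-linked, 12 highest autosomal and 12 lowest autosomal genes that carry a symbol, were called and lay on the same side of 0 on all 4 arrays. Replicate 1 gave the lowest value for each of the 12 X-linked genes, while aly-1, lmd-2, skr-16, skr-3 and nhj-1 varied least between arrays among the autosomal genes that rose.

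Some X-linked genes that rose have a close relative on an autosome, and in the pairs given here the relative did not rise. These pairs were picked after their values were seen, and X-linked genes with autosomal relatives were not counted as a whole. asb-2 had 2.32, 3.59, 3.1 and 3.19, while asb-1 on chromosome III, which encodes the same ATP synthase subunit, had 0.49, -0.32, -0.13 and 0.12 (fitted 0.04, adjusted p = 0.922). rpl-11.2, a ribosomal protein gene, had 1.72, 2.18, 2.48 and 2.31, while rpl-11.1 on chromosome V had 0.11, -0.02, -0.03 and 0.44 (fitted 0.12, adjusted p = 0.849). In both pairs no array of the autosomal gene reached the lowest array of the X-linked gene. snrp-40.1 had 1.97, 3.66, 3.03 and 3.05, while snrp-40.2 on chromosome I fell with -0.72, -1.02, -1.65 and -0.50 (fitted -0.97, SE 0.15, adjusted p = 9.99e-04). gas-1, a core subunit of mitochondrial complex I, had 1.67, 2.79, 3.15 and 2.44, while its relative nduf-2.2 on chromosome III fell with -0.64, -0.46, -0.73 and -0.35 (fitted -0.55, SE 0.10, adjusted p = 0.00432). These pairs thus lay on opposite sides of 0 on each array. Neither snrp-40.2 nor nduf-2.2 passed on the 4 double mutant arrays alone, with adjusted p of 0.125 and 0.127.

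Genes from 4 other families, also picked after their values were seen, showed the same contrast. It did not hold in every family. Among the skr genes described below, the X-linked skr-20 rose at 2.11, and the autosomal skr-3 and skr-16 rose at 2.85 and 3.00. Of 5 subunits of the AMP-activated kinase, which senses cellular energy, 3 lie on X and 2 of these rose. None of the 5 fell, where 9.62% of all genes rose and 6.25% fell. The X-linked aakb-1 rose with 1.42, 1.73, 1.65 and 1.95 (fitted 1.69, SE 0.08, adjusted p = 6.33e-07). The X-linked aakg-2 rose with 0.92, 1.22, 2.08 and 1.09 (fitted 1.33). The autosomal beta subunit aakb-2 had 0.21, -0.68, -0.36 and 0.12 (fitted -0.18, adjusted p = 0.476). lsd-1, an X-linked histone demethylase gene, rose unevenly with 0.86, 3.61, 3.03 and 1.74 (fitted 2.31, SE 0.38, adjusted p = 0.0018). Its autosomal relative spr-5 had -0.74, 0.65, 0.44 and -0.41 (fitted -0.01, adjusted p = 0.978). bra-2 on chromosome III, the relative of bra-1, had 0.72, -0.15, -0.11 and 0.42 (fitted 0.22, adjusted p = 0.427). The relatives of coh-1 are the kleisin subunits of meiotic and mitotic cohesin. Of these rec-8 fell with -1.74, -0.45, -1.35 and -1.54 (fitted -1.27, SE 0.20, adjusted p = 0.00146). coh-3, coh-4 and scc-1 had fitted values of -0.38, -0.47 and 0.03 that did not pass (adjusted p = 0.213, 0.0910 and 0.956).

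Rising X-linked genes also lay next to each other. Among tested genes in chromosome order there were 14 runs of at least 4 neighbours that all rose, 12 of them on X and 2 on chromosome V, and no such run of genes that fell. Runs form more often where more genes are called: on X 21.03% rose and 1.88% fell, against 7.89% and 6.91% on autosomes. How many runs these shares would give by themselves was not tested. The longest held 12 X-linked genes, in order rgs-10, rgs-11, flwr-1, tbc-1, F20D1.3, emre-1, plp-2, rbg-1, iglr-1, slc-25A18.1, ergi-2 and C18B12.4, with fitted log2 ratios between 0.52 and 3.23. Within it the highest were flwr-1 at 3.23, emre-1 at 2.69, F20D1.3 at 1.86, slc-25A18.1 at 1.65 and rgs-10 at 1.49, and the lowest was plp-2 at 0.52. Another run of 5 held egl-6, acs-17, mig-23, R07E4.5 and R07E4.3, with values between 0.62 and 4.00, and another held snrp-40.1, F08G12.3, F08G12.1, vhl-1 and F08G12.5, with values between 1.2 and 3.51. A run of 4 held meg-1, meg-2, ekl-5 and Y26E6A.2. Neighbours in these runs can share a transcript unit or sequence, which was not tested.

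The autosomal genes that rose most had varied functions. tbb-6, a beta tubulin known to be induced when mitochondria fail, had the largest value of all, 3.4, 6.10, 8.54 and 4.74 (fitted 5.70, SE 0.62, adjusted p = 1.28e-04). The tbb-6 arrays spread over more than 5 log2 units, and its adjusted p on the 4 double mutant arrays alone was 0.0724. It stood apart from its family, in which 1 of 12 tubulin genes rose and none fell, with a list median of -0.07. Of 10 genes of the mitochondrial stress response, 2 rose, tbb-6 and the X-linked gpd-2, and none fell (median 0.13). Among all genes 9.62% rose and 6.25% fell. aly-1, an adaptor for RNA export, had 3.71, 3.53, 2.84 and 3.58 (fitted 3.42, SE 0.19, adjusted p = 1.01e-06), and was the member called among 11 export genes, of which 3 rose without replicate 3 and 3 with array weights. lmd-2, a LysM domain gene, had 3.44, 3.26, 3.00 and 3.84 (fitted 3.38, SE 0.13). nhj-1, which acts in the joining of DNA ends, had 2.29, 2.56, 2.03 and 2.86 (fitted 2.44, SE 0.11). aly-1, lmd-2 and nhj-1 agreed closely over the 4 arrays. gst-38, a glutathione S-transferase gene, was measured on 3 double mutant arrays with 3.45, 4.70 and 4.06 on replicates 1, 2 and 4. Of 35 glutathione S-transferase genes, 6 rose (17.1%) and 1 fell (2.9%), where 9.62% of all genes rose and 6.25% fell. Among those that rose was gst-43 with 0.84, 0.66, 0.64 and 0.90. Of 44 heat shock and chaperone genes, 6 rose (13.6%) and 4 fell (9.1%), with a median of 0.00, and with array weights 11 rose and 12 fell. The small heat shock gene hsp-16.21 had 1.05, 2.26, 3.63 and 2.82.

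Genes of ubiquitin ligases rose together in part. Of 82 MATH, BTB and Skp1-related genes, whose products bring substrates to cullin ligases, 19 rose and 4 fell (median 0.11), where 9.62% of all genes rose. The number that fell was 7 without replicate 1, 2 without replicate 2 or 3 and 11 without the 3 arrays, where 17 rose. Skp1-related genes made up much of this: 9 of 15 skr genes rose, none fell and 6 were not called. skr-16 had 2.79, 3.00, 3.05 and 3.15 (fitted 3.00, SE 0.11, adjusted p = 1.02e-07) and skr-3 had 2.53, 3.2, 2.66 and 3.03 (fitted 2.85, SE 0.09, adjusted p = 3.47e-08). skr-4 and the X-linked skr-20 had fitted log2 ratios of 2.15 and 2.11, while skr-2, skr-15 and skr-21 had 0.28, 0.02 and -0.02 and did not pass. bath-39 had 1.78, 3.49, 3.3 and 3.13 (fitted 2.92, SE 0.19). Of 202 F-box genes of the A and B families, 17 rose and 10 fell, shares near those of all genes. Among the 17 were fbxa-120 with 1.76, 3.14, 1.88 and 2.52 and fbxa-65 with 1.80, 2.83, 1.46 and 2.33. fbxa-107 fell with -1.29, -1.80, -3.15 and -1.2. Members of these families resemble each other, so their probes can cross-hybridise.

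**Figure D4:**
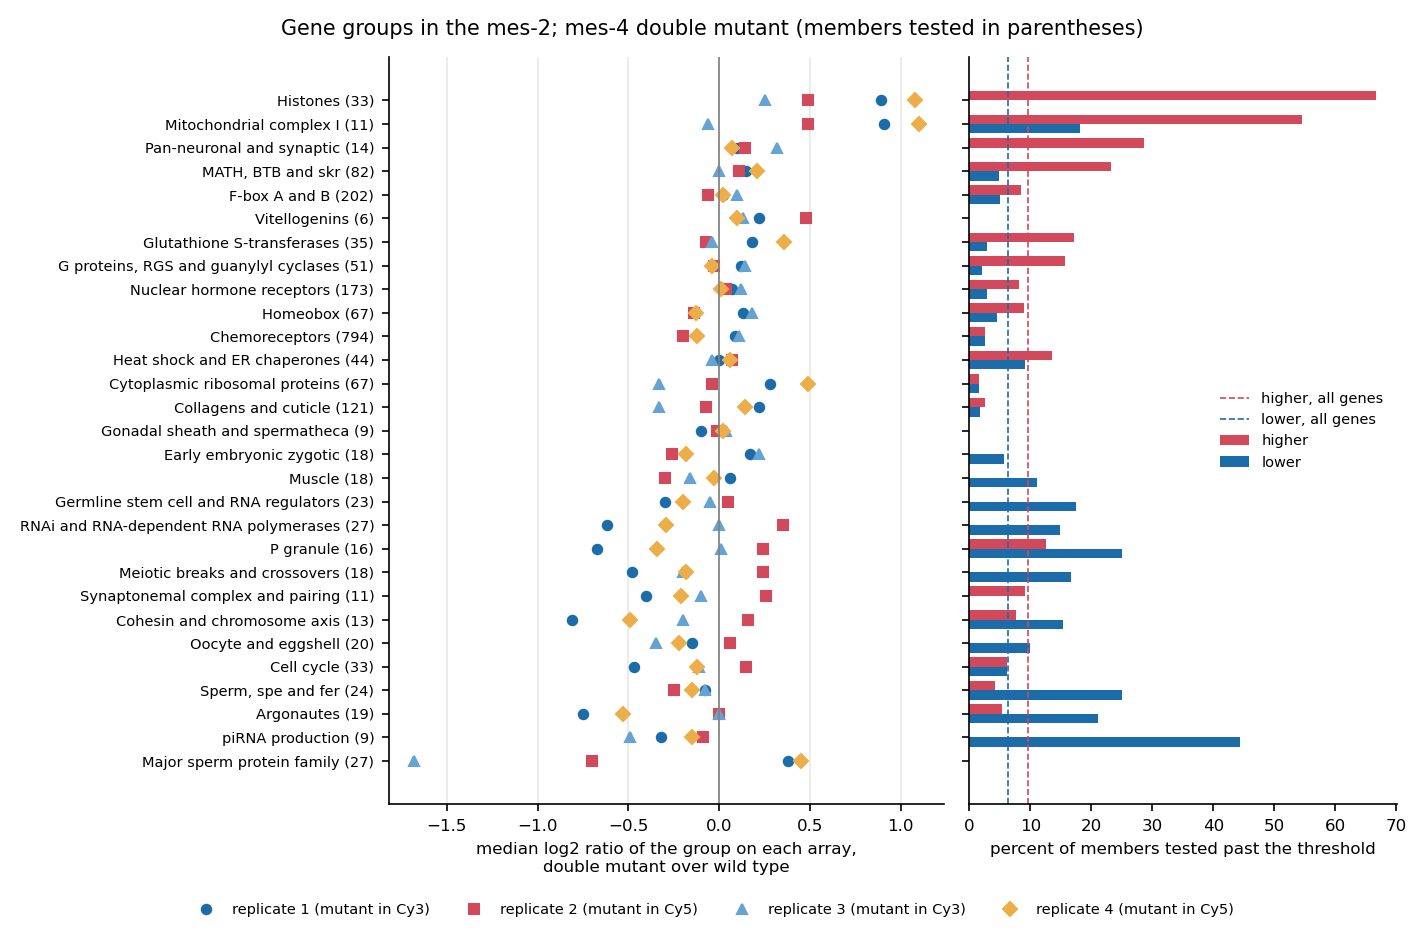
Left, median log2 ratio of each gene group on each double mutant array; right, percent of the tested members of each group that rose (red) or fell (blue), with dashed lines at the shares among all genes tested (9.62% and 6.25%). Histones and mitochondrial complex I lay highest on replicates 1 and 4, the major sperm protein family lay below 0 on replicates 2 and 3 and above 0 on replicates 1 and 4, and the Argonaute group lay lowest on replicates 1 and 4.

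Histone genes had the highest median among the groups drawn. Of 33 measured, 22 rose (66.7%) and none fell, where 9.62% of all genes rose and 6.25% fell. The median was 0.76, and the group medians were 0.89, 0.49, 0.25 and 1.08 on the 4 arrays. his-8, an H2B gene, had 1.52, 1.73, 2.06 and 1.80 (fitted 1.78, SE 0.14, adjusted p = 1.12e-05). his-62 and his-4 had 1.65, 1.43, 1.12 and 1.95, and 1.59, 0.76, 0.72 and 1.59. The group was highest on replicates 4 and 1, and 9 members rose without replicate 1, 8 without replicate 4 and 22 without replicate 2 or 3. Without the 3 arrays 8 histones rose (median 0.3), and without the 2 arrays 22 rose (median 0.96). In the fit of the 4 double mutant arrays alone 2 members rose. Histone gene copies resemble each other and most of their transcripts lack the poly-A tail by which RNA was amplified.

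Genes of mitochondrial complex I, the first enzyme of the respiratory chain, showed the same dependence on arrays. Of 11, 6 rose (54.5%) and 2 fell (18.2%), where 9.62% of all genes rose and 6.25% fell. The group medians were 0.91, 0.49, -0.06 and 1.1. nduf-6 had 1.5, 0.71, 1.1 and 1.55 (fitted 1.22, SE 0.17, adjusted p = 7.54e-04) and nuo-6 had 1.14, 0.68, 0.18 and 1.44 (fitted 0.86). The 2 that fell were nduf-2.2 and nuo-1, a core subunit, with fitted values of -0.55 and -0.41. Without replicate 1, 3 members rose, and the same number rose without replicate 4. Without the 3 arrays 3 complex I genes rose (median 0.22), and without the 2 arrays 7 rose (median 1.04). nuo-6 was not called without either of them. Of 67 cytoplasmic ribosomal protein genes, 1 rose, the X-linked rpl-11.2, and 1 fell, rpl-42 with -0.50, -0.87, -0.69 and -0.51. Without the 2 arrays 15 cytoplasmic ribosomal protein genes rose.

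Genes of small RNA pathways silence transposons and foreign sequence in germ cells. Of 9 genes of piRNA production, 4 fell and none rose (median -0.37), where 6.25% of all genes fell. tofu-2, which acts in the processing of piRNA precursors, had -1.71, -1.77, -2.66 and -1.61 (fitted -1.94, SE 0.13, adjusted p = 4.47e-06), and parn-1, the nuclease that trims piRNAs, had -0.86, -0.43, -0.49 and -0.68 (fitted -0.61, adjusted p = 0.00307). The other genes that fell were tofu-7, at a fitted value of -0.59 and not called without replicate 2, and tofu-4. Of 27 RNA interference genes, 4 fell and none rose. eri-7, a helicase gene, had -1.87, -1.07, -1.84 and -1.53 (fitted -1.58, SE 0.15, adjusted p = 4.97e-05). eri-5, a Tudor domain cofactor of Dicer, had -1.25, -0.62, -1.22 and -0.82. mut-14, a helicase gene, had -0.98, -0.41, -0.86 and -0.77. Replicate 2 was nearest to 0 for eri-7, eri-5 and mut-14.

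Argonaute genes, whose proteins bind the small RNAs, moved with the split of the arrays. Of 19, 4 fell (21.1%) and 1 rose (5.3%), where 6.25% of all genes fell and 9.62% rose. The group medians were -0.75, 0.00, 0.00 and -0.53. ppw-2 had -1.89, -0.56, -1.29 and -1.78 (fitted -1.38, SE 0.22, adjusted p = 0.00137) and wago-1 had -1.41, -0.34, -0.70 and -1.64. hrde-1, which carries silencing between generations, had -1.46, -0.03, -0.84 and -1.49 (fitted -0.95, adjusted p = 0.0376). Neither wago-1 nor hrde-1 was called without replicate 1 or without replicate 4. The count of Argonautes that fell was 2 without replicate 1 and 2 without replicate 4. With replicates 1 and 4 and mes-4 replicate 3 left out, 1 fell and 4 rose, and without replicates 2 and 3, 10 fell and none rose. The RNA interference genes turned in the same way, with 4 lower and 6 higher without the 3 arrays and 9 lower and none higher without the other 2. For piRNA production the counts were 4 lower and none higher, and 3 lower and 2 higher.

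The markers of the germ line itself changed little. pgl-1 and gld-1, which encode a P granule protein and a regulator of meiotic entry and oocyte development, fell with fitted values of -0.38 and -0.30, while the germline helicase gene glh-1 and the meiotic genes syp-1 and him-3 did not pass. The 5 germline markers had a median of -0.11. Of 16 P granule genes, 4 fell and 2 rose, where 6.25% of all genes fell and 9.62% rose. Without replicate 1 the number of P granule genes that fell was 2. cgh-1, an RNA helicase gene of germ granules, had -1.31, -0.71, -1.56 and -0.83 (fitted -1.1, SE 0.14, adjusted p = 3.92e-04). The 2 that rose are neighbours on X: meg-2 with 0.63, 2.84, 3.77 and 1.57 and meg-1 with 0.01, 1.57, 1.26 and 0.75, of which meg-1 was not called without replicate 2 or without replicate 3. Of 23 RNA regulators of germline stem cells and meiotic entry, 4 fell (17.4%) and none rose. fbf-1 and fbf-2, which keep stem cells from entering meiosis, had -1.38, -0.36, -0.57 and -1.48, and -1.16, -0.31, -1.01 and -1. Of these regulators 2 fell without replicate 4, and with the 3 arrays left out 3 fell and 3 rose.

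Calls among meiotic and cell cycle genes depended on the arrays. They are set beside the shares of all genes tested, of which 9.62% rose and 6.25% fell. Of 13 cohesin and axis genes, coh-1 rose and rec-8 and the axis gene htp-3 fell, the last with -1.39, -0.44, -0.76 and -1.32 (fitted -0.98, SE 0.16, adjusted p = 0.00198). Of 11 synaptonemal complex and pairing genes, syp-3 alone was called, and it rose with 1.1, 0.88, 0.35 and 1.36 (fitted 0.92, SE 0.16). Without replicate 2, 2 genes of this group fell. Of 18 genes of meiotic breaks and crossovers, xnd-1, com-1 and dsb-1 fell, and none of them was called without replicate 4. him-19, which acts in meiotic pairing and break formation, was among the 12 lowest autosomal genes with -1.05, -1.85, -2.76 and -1.29. With array weights 6 cohesin and axis genes, 5 synaptonemal complex and pairing genes and 6 genes of meiotic breaks and crossovers fell. Of 33 cell cycle genes, 2 rose and 2 fell (6.1% each), shares not above those of all genes. Without replicate 2, 5 cell cycle genes fell and none rose, and with array weights 13 fell and 2 rose. mcm-4, a subunit of the replicative helicase, had the lowest value with -1.51, -0.42, -0.86 and -1.45 (fitted -1.06).

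Sperm and oocyte genes differed in how firmly they were called. The counts are set beside the shares of all genes tested, of which 9.62% rose and 6.25% fell. Whether the counts of these small groups exceed those shares was not tested. Of 24 spe and fer genes of sperm, 6 fell and 1 rose (median -0.11). spe-15, a myosin gene that acts when sperm form, had -1.70, -1.01, -1.63 and -1.25 (fitted -1.40, SE 0.16, adjusted p = 1.46e-04). It was also called on the 4 double mutant arrays alone, with an adjusted p of 0.0264. The 27 major sperm protein genes gave no call, and their medians were 0.38, -0.70, -1.68 and 0.45, which is the widest spread between arrays of the groups drawn. Without the 3 arrays 18 members of the major sperm protein family fell (median -1.18), and without the 2 arrays 1 rose (median 0.42). msp-142 and msp-10 had 0.32, -0.91, -1.71 and 0.52, and 0.40, -0.81, -1.91 and 0.61. Of 20 oocyte and eggshell genes, cbd-1 and spn-4 fell, and neither was called without replicate 4. The 5 oocyte markers rme-2, oma-1, oma-2, cpg-1 and cpg-2 gave no call, with a median of -0.11 and the lowest value -0.58 for the yolk receptor gene rme-2 (adjusted p = 0.143). Of 10 sex determination genes, 2 rose and 1 fell (median -0.22). her-1, the male-determining signal, had 0.20, 0.65, 1.22 and 0.88, and fog-3, which promotes sperm fate, had 0.21, 0.35, 0.36 and 0.50. laf-1, an RNA helicase gene, fell with -0.58, -0.11, -0.14 and -0.84. Without replicate 4 neither fog-3 nor laf-1 was called, and laf-1 was also not called without replicate 1.

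Markers of somatic cells that a dissection can carry along gave few calls. None of 8 markers of gonadal sheath and spermatheca passed (medians -0.08, -0.02, -0.16 and 0.10 on the 4 arrays), nor any of 3 for the distal tip cell, 8 for the intestine and 5 for the early embryo. The 6 vitellogenin genes, made in the intestine, had medians of 0.22, 0.48, 0.13 and 0.10, and none passed. Of 4 muscle markers the myosin gene myo-3 fell, with -0.93, -0.31, -1.05 and -0.98. Of 121 collagen and cuticle genes, 3 rose and 2 fell, and 7 fell without replicate 1 and none without replicate 2 or 3. Of 794 chemoreceptor genes, 21 rose and 21 fell, 2.6% each way, against 9.62% and 6.25% of all genes. Without replicate 4 the chemoreceptor counts were 8 higher and 10 lower, and with array weights 42 and 43.

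Neuronal genes rose in a few cases. Of 14 genes that act in all neurons or at synapses, 4 rose (28.6%) and none fell, where 9.62% of all genes rose and 6.25% fell. nrx-1, the neurexin gene, had 1.47, 3.55, 5.19 and 2.19 (fitted 3.1, SE 0.47, adjusted p = 0.00105) and ric-19, a gene of dense-core vesicles, had 0.47, 1.70, 0.98 and 1.58 (fitted 1.18). unc-31, which acts in release from such vesicles, rose with -0.02, 1.08, 1.64 and 0.64 (fitted 0.83), and was not called without replicate 2, 3 or 4. The synaptobrevin gene snb-1 was the fourth. Of 4 neuron markers tested, ric-19 and snb-1 rose, and their part in these results was not tested. None of 9 genes of neurotransmitter identity was called, and 1 fell without replicate 3. Among them was unc-47, with -0.09, 0.07, -0.10 and -0.14. Of 51 genes of G proteins, their RGS regulators and guanylyl cyclases, 8 rose (15.7%) and 1 fell (2.0%), and 5 rose without replicate 4. gpa-1, a G protein alpha subunit, had 1.31, 2.27, 1.31 and 2.37 (fitted 1.81, SE 0.24, adjusted p = 4.78e-04), and the X-linked rgs-10 had 1.58, 1.57, 2.03 and 0.76.

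For nuclear hormone receptor and homeobox genes the shares called were not above those of all genes (9.62% higher and 6.25% lower). Of 173 nuclear hormone receptor genes, 14 rose (8.1%) and 5 fell (2.9%), and 7 rose without replicate 4. nhr-107 had 2.83, 2.84, 4.08 and 2.47 (fitted 3.06, SE 0.24) and nhr-42 had 1.15, 1.35, 2.06 and 1.55. Of 67 homeobox genes, 6 rose (9.0%) and 3 fell (4.5%), 4 of the 6 on X. The X-linked ceh-93 had 1.48, 3.90, 3.37 and 2.56, and ceh-91 fell with -1.5, -1.06, -1.56 and -1.1 (fitted -1.3, SE 0.14, adjusted p = 1.43e-04). Without replicate 1 or replicate 4, 3 homeobox genes rose, and without the 3 arrays 2 rose and 7 fell. Of 22 other histone methyltransferase and demethylase genes, lsd-1 rose and the demethylase gene jmjd-2 fell with -1.55, -0.28, -1.07 and -1.04. Of 10 genes of dosage compensation, sdc-1 on X and sdc-3 rose, with fitted values of 1.65 and 0.36, and neither was called without replicate 2. lin-52, a subunit of the DRM repressor, rose with 1.56, 1.01, 0.45 and 1.38 and was the member called of 13 synMuv B and DRM genes, of which 2 rose without replicate 1.

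The autosomal genes that fell most, after mes-2, were less even between arrays than those that rose. haf-6, an ABC transporter needed for RNA interference, had -1.77, -0.59, -4.47 and -2.86 (fitted -2.42, SE 0.48, adjusted p = 0.00713). slc-25A18.2 had -1.28, -1.09, -4.40 and -0.17, and zig-11, an immunoglobulin domain gene, had -1.74, -0.27, -4.07 and -0.80. Replicate 3 was lowest for each of these. slc-25A18.2 was not called without replicate 2, while its X-linked namesake slc-25A18.1 rose. The ABC transporter gene wht-2 was more even with -1.73, -1.38, -2.59 and -1.92 (fitted -1.91, SE 0.16, adjusted p = 1.97e-05). elpc-2, a subunit of the Elongator complex, had -1.96, -1.01, -1.70 and -2.17 (fitted -1.71, SE 0.19). Of the 12 lowest, mes-2, wht-2 and tofu-2 also passed on the 4 double mutant arrays alone. Lowest of the genes known by a sequence name was Y49E10.4, a gene on chromosome III, with -3.27, -6.20, -5.99 and -3.24 (fitted -4.67, SE 0.45, adjusted p = 5.86e-05). Few X-linked genes fell: the lowest were nkat-1, with -1.47, -1.42, -2.36 and -1.45, and the transthyretin-related gene ttr-14, with -1.05, -1.46, -2.21 and -0.41.

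The double mutant and mes-2 mutants were set against the same wild-type strain, and mes-4 mutants against N2. Their values are therefore given side by side, and a difference is stated where the contrast of 2 mutants passed in the joint fit. The double mutant differed from mes-2 for 798 genes (6.19%), 460 higher (3.57%) and 338 lower (2.62%). It differed from mes-4 for 229 genes (1.78%), 188 higher (1.46%) and 41 lower (0.318%). The 358 X-linked genes that rose in the double mutant had a median log2 ratio of 1.27 there, 0.27 in mes-2 and 0.71 in mes-4. Of the 358, 162 were above mes-2, 53 above mes-4 and 50 above both. In the single mutants, 47 of them rose in mes-2, where 3.94% of all genes rose and 1.3% fell, and 171 in mes-4, where 2.52% rose and 1.39% fell. The other 176 passed in neither direction in either single mutant. Of all 1702 X-linked genes tested, 58 rose in mes-2 and 193 in mes-4. X thus held 58 of the 508 genes that rose in mes-2, 193 of 325 in mes-4 and 358 of 1240 in the double mutant. The 879 autosomal genes that rose had medians of 0.69 in the double mutant, 0.14 in mes-2 and 0.20 in mes-4, and 71 were above both single mutants. The 806 genes that fell had medians of -0.64, -0.11 and -0.24 in the same order, and 24 were below both. These genes were chosen by their calls in the double mutant, so its own median is large by choice. The same choice favours differences from the single mutants in that direction, so the counts above or below them are no separate support.

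**Figure D5:**
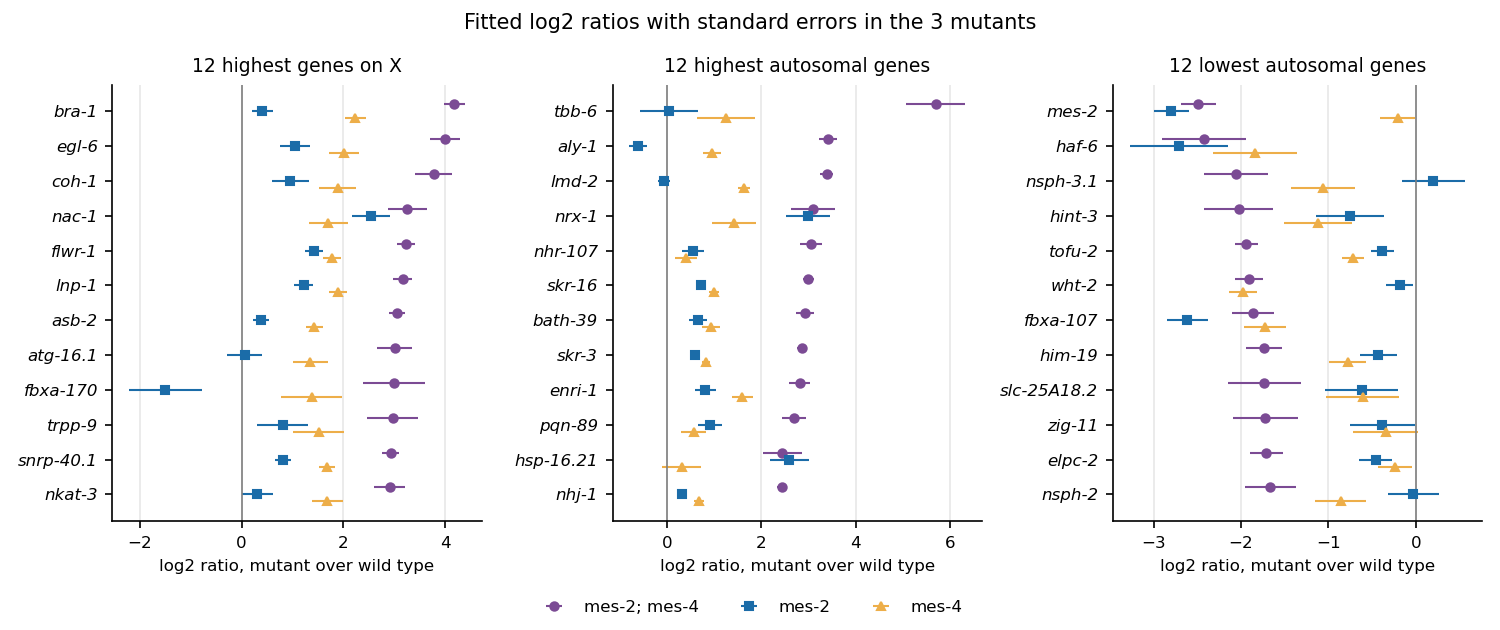
Fitted log2 ratios with standard errors (n = 4 arrays per mutant) in the mes-2; mes-4 double mutant (purple circles), mes-2 mutants (blue squares) and mes-4 mutants (orange triangles), for the genes of the plot of values on each array. The standard errors come from the joint fit, which pools the spread of the 3 groups, so they do not show the spread of each mutant's own arrays. The 12 X-linked genes were picked for high values in the double mutant, where bra-1 reached 4.17, against 0.41 in mes-2 and 2.24 in mes-4, while haf-6 had -2.42, -2.71 and -1.84.

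Of the 12 highest X-linked genes, 10 were above mes-2 and 6 above mes-4 by test. These 12 and the 12 highest autosomal genes were picked for high values in the double mutant. That choice favours a positive difference, so the counts describe the genes picked and are no separate support. bra-1 had 4.17 in the double mutant, 0.41 in mes-2 and 2.24 in mes-4, and the differences had adjusted p of 5.9e-05 and 0.0091. asb-2 had 3.05 in the double mutant, 0.38 in mes-2 and 1.43 in mes-4 (adjusted p of the differences 1.1e-04 and 0.0070). nac-1 had 3.26 in the double mutant, 2.54 in mes-2 and 1.71 in mes-4, and neither difference passed (adjusted p = 0.52 and 0.22). Of the 12 highest autosomal genes, 10 were above mes-2 and 9 above mes-4. tbb-6 had 5.70 in the double mutant, 0.04 in mes-2 and 1.25 in mes-4, and skr-3 had 2.85, 0.59 and 0.83 in the same order, with both differences called for each gene. For nrx-1 and hsp-16.21 the difference from mes-2 did not pass (adjusted p = 0.96 and 0.92): nrx-1 had 3.1 in the double mutant and 3.00 in mes-2, and hsp-16.21 had 2.44 in the double mutant and 2.59 in mes-2.

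Some changes of a single mutant were smaller or lacking in the double mutant. homt-1, an O-methyltransferase gene, had 0.09, -0.67, -1.25 and 0.31 in the double mutant (fitted -0.38) and a fitted value of -4.65 in mes-2 (adjusted p of the difference 5.0e-05). unc-31 had 0.83 in the double mutant and 2.90 in mes-2 (adjusted p = 0.0029), and gpa-1 1.81 in the double mutant and 3.23 in mes-2 (adjusted p = 0.036). C10C6.7 had 0.21 in the double mutant, 3.19 in mes-2 and -1.42 in mes-4, and rnh-1.3, a ribonuclease H gene, had 0.06 in the double mutant, -1.77 in mes-2 and 1.87 in mes-4. Both differed from each single mutant, which lay on opposite sides of 0. ulp-5, a SUMO protease gene, had -0.70, -1.14, -1.33 and -0.70 in the double mutant (fitted -0.97), 0.12 in mes-2 and -1.99 in mes-4, and differed from both (adjusted p = 0.0052 and 0.018). Other changes of a single mutant did not differ by test in the double mutant. F57A10.4 had -3.90 in the double mutant, -2.91 in mes-4 (adjusted p of the difference 0.60) and 0.41 in mes-2. Among the 12 lowest autosomal genes wht-2 had -1.91 in the double mutant, -0.19 in mes-2 and -1.98 in mes-4 (adjusted p of the difference from mes-4 0.95). fbxa-107 had -1.86, -2.61 and -1.73 in the same order (adjusted p of the differences 0.25 and 0.93).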

How the data were processed

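Germ-line RNA of a mutant and of a wild-type sample was compared on each of 12 two-colour arrays. The deposited values are log ratios, a value for each probe on each array, which were read as log2. Log base, normalization, spot filters and direction are not given in the sources used here. A positive ratio was read as mutant above wild type, since the mutant is channel 1 on each array, the titles name it first and the mes-2 probe is below 0 on the 4 double mutant arrays. Every fold rests on base 2. Probes naming a gene in the platform annotation were averaged per gene, and names and gene order came from the RefSeq gene table of WBcel235. Limma 3.58.1 in R 4.3.3 was fitted to 12 arrays with a coefficient per mutant and a dye term. Tests were two-sided, with Benjamini-Hochberg adjustment over 12887 genes and a threshold of 0.05. The labels say that replicates were harvested independently. Precision is limited by the number of arrays.

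Members and lists were chosen with earlier results of these data known. The text names the targeted genes mes-2 and mes-4, the highest and lowest called genes with a symbol and all 4 values on the same side of 0, up to 3 members of each list with the largest values, and the largest differences from each single mutant. Other members were named after their values were seen. Alternatives varied the arrays fitted, dye term, replicate block, replicates, weights, scaling, centring, filters, probe summary and threshold.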

Additional observations from a re-analysis of the deposited data

Results flagged for a closer look

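In 8 of 160 named genes with a value on all 4 double mutant arrays, 1 array lay far from the other 3 beyond the 95% critical value of Dixon's ratio of gap to range. For unselected genes chance gives about 1 in 20, but most of these genes were picked by their calls, so that rate is no measure for them. Of the 8, 7 fell on replicate 3. On replicate 3, tofu-2 was at -2.66 while the other arrays lay between -1.77 and -1.61, nkat-1 was at -2.36, col-139 at -2.79 and spe-46 at -1.42, each the lowest of its gene. Also on replicate 3, twk-49 was at 2.25, egl-1, the activator of cell death, at 1.19 and the cell cycle inhibitor gene cki-1 at 0.58, each the highest of its gene. The remaining array was replicate 2 for myo-3, at -0.31, nearest to 0. With replicate 3 left out, tofu-2, nkat-1, spe-46 and egl-1 were still called, and col-139, twk-49 and cki-1 were not.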

How the results depend on the processing

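Arrays limit what can be called here: the count of 2046 genes changed was 173 on the 4 double mutant arrays alone, 1301 without the dye term, 1127 at an adjusted p under 0.01, 355 with a test against 1.5-fold, 3238 with array weights, and between 1289 (without replicate 4) and 1889 with a replicate left out. The other planned settings gave between 1421 and 2058. In settings chosen after seeing the data, it was 2588 without double mutant replicates 1 and 4 and mes-4 replicate 3, with 1287 higher and 1301 lower, and 2840 without replicates 2 and 3. The majority thus turned in the first of these. In that setting the mes-4 probe was 0.55 and past the threshold. The cause was not tested. The count above or below mes-2, 798, was 330 on double mutant and mes-2 arrays only, 367 without the dye term, 1816 with weights, 129 against 1.5-fold, 499 to 774 with a replicate left out, and 1355 and 1861 without the 3 and the 2 arrays. The count against mes-4, 229, was 67, 2369 and 22 under the same dye, weight and fold settings, 90 with arrays scaled, 90 to 261 with a replicate left out, and 353 and 1152. The X share of higher genes, 28.9%, was 46.7% on the 4 arrays alone, 54.5% against 1.5-fold and 18.9% without the 2 arrays. The X minus autosome shift was 0.149 by medians and 0.338 by means. Of 154 named genes called, 38 were also called on the 4 arrays alone.

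Whether replicate numbers pair the samples was not settled. Same-numbered deviations from the fit correlated between -0.101 and 0.261 for the double mutant with mes-2, and between -0.473 and 0.54 with mes-4. The main axis of the residuals holds 47% of their variance, so these correlations cannot decide it. With a replicate block the counts were 1497, 453 for the difference from mes-2 and 101 for that from mes-4.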

Other observations

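The comparisons above used probes that name a gene. Of the 5029 other probes, 4027 had enough values for the same fit, and 497 were called in the double mutant, 258 higher (6.41%) and 239 lower (5.93%). More than 2-fold higher were 99 and more than 2-fold lower 39, with fitted log2 ratios between -1.92 and 4.19.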
